A study of Mus musculus with 8 samples.

Results

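The 10 genes described here encode the enzymes and guide proteins that place and remove methyl groups on DNA: Dnmt1, Dnmt3a, Dnmt3b, Uhrf1, Uhrf2, Tet1, Tet2, Tet3, Tdg and Mbd4. They were taken by symbol from a table of 49492 mouse genes, and 10 of 10 were found. RNA was sequenced from CD8+ T cells, the cytotoxic arm of the T lineage, sorted with CD8a beads out of subcutaneous B16 melanomas on day 14. Floxed Plpp1 alleles were shared by all 8 libraries: 4 control libraries had genotype PLPP1fl/fl and 4 knockout libraries Lckcre-PLPP1fl/fl. Plpp1 encodes a lipid phosphatase, and Cre in these knockouts is driven by the T-lineage Lck promoter, so the presence of Cre and the loss of Plpp1 cannot be told apart. The mice were described as female, with no age given. No label ties each library to an animal of its own, so p-values measure only a spread between libraries that may be technical.

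DNA methylation in mammals sits mainly on cytosines followed by guanine (CpG). DNMT1, brought to newly copied DNA by UHRF1, restores the mark after replication, whereas DNMT3A and DNMT3B write it on unmethylated sites. TET dioxygenases oxidise the methyl group, and the glycosylase TDG cuts out the most oxidised forms so that base excision repair can put back a plain cytosine. MBD4 removes thymine left when a methylated cytosine loses its amino group. In T cells DNMT3A and TET2 are known for shaping effector, memory and exhausted states.

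The promoters of Tet1, Mbd4 and Tdg are shown because these genes had the smallest adjusted p-values among the 10, and their CpG sites, the substrate of this pathway, are in capitals. Each is RefSeq sequence on build GRCm38, read 5′ to 3′ on the gene's strand and ending at the RefSeq start or, for Mbd4 and Tdg, at the first exonic base of the count table. The Tet1 stretch lies at chr10:62887325-62887574 on the minus strand and holds 15 CpG sites in 250 bases; it lies inside the span of Tet1 in the count table, which begins further upstream, but outside its exons.
Tet1: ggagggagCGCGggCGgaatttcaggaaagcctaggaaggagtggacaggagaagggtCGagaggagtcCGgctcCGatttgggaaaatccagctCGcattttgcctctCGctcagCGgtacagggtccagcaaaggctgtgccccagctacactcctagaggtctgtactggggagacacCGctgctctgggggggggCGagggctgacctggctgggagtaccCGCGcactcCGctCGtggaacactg
The Mbd4 stretch lies at chr6:115853372-115853591 on the minus strand and holds 21 CpG sites in 220 bases.
Mbd4: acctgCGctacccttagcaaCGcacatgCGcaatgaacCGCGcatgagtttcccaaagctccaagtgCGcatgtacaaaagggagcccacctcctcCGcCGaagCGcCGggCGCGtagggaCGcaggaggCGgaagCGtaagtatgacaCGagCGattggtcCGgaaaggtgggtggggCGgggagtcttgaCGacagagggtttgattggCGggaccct
The Tdg stretch lies at chr10:82629588-82629827 on the plus strand and holds 18 CpG sites in 240 bases.
Tdg: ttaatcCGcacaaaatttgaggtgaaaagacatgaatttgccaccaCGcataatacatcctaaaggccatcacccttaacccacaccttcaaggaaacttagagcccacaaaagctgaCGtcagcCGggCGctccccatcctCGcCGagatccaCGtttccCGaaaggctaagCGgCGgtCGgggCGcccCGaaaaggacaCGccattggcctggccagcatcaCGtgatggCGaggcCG

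All 10 genes matched the promoter table, with 15 start sites. In the 250 bases before a start, the ratio of observed to expected CpG was above 0.6 at 10 of 15 sites, belonging to 9 of 10 genes, against 34.0% of all 32851 windows in the table. The gene without such a window was Tet3. A GC box (GGGCGG, either strand) stood in 12 of 15 windows against 32.7% of all, and a CCAAT box (CCAAT, either strand) in 7 of 15 against 33.8%. The E2F words TTTCGCGC, TTTGGCGC, TTTCCCGC and TTTGCCGC, searched on both strands, stood in 2 of 15 windows against 1.86% of all. Those windows belonged to Dnmt1 and Uhrf1, the maintenance pair. E2F factors are known for driving genes of DNA replication, and 30 bases around each match are shown with the E2F word in capitals. The Dnmt1 match lies at chr9:20952824-20952853 on the minus strand, 211 bases before the third RefSeq start and inside an exon that begins at an earlier start. The Uhrf1 match lies at chr17:56304117-56304146 on the plus strand, 177 bases before the second RefSeq start and outside the exons. Neither word shares bases with a GC box or CCAAT box. A match of letters shows neither binding nor a cause.
Dnmt1: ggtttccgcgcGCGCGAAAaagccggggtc
Uhrf1: cccgagtcgggTTTCGCGCgcccaggcgtc

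Total counts per library ran from 44118131 to 61999941, and the 10 genes held between 95 and 86304 counts in a library. The genotypes differed across the transcriptome: 11542 of 17940 tested genes (64.3%) passed a Benjamini-Hochberg adjusted p of 0.05 in edgeR's quasi-likelihood test, 5878 (32.8%) higher and 5664 (31.6%) lower in knockouts. Plpp1 levels in CPM, counts scaled to a common library size, were 0.677 to 1.08 for control libraries and 0.376 to 0.698 for knockout libraries, which overlap, and which exon was deleted is not stated in the labels. Summed Y-linked transcripts (Ddx3y, Eif2s3y, Kdm5d and Uty) stood at 190 to 203 CPM in knockouts and at 0.0974 to 0.244 CPM in controls, while Xist stood at 45.6 to 56.3 CPM in knockouts and 715 to 777 in controls. These values go against the description of all mice as female. Genotype and sex-chromosome expression therefore cannot be told apart in any difference below. In bulk libraries such as these, fewer cells with a transcript and less of it per cell cannot be told apart.

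Of the 10 genes, 6 fell and 1 rose in knockouts, and 3 did not pass the test. Called genes were thus 7 of 10 beside 64.3% of all tested genes, and beside 77.6% of the 8476 tested genes with a mean of at least 10 CPM, so the share called does not set these enzymes apart. Falls were 6 of 10 beside 31.6% of all tested genes. The groups of libraries did not overlap in 6 of the 10 genes, beside 58.3% of all tested genes, and 5 of them were lower in knockouts, beside 28.2%. The median log2 fold change was -0.16 over the 10 genes and -0.012 over all tested genes, and the median absolute log2 fold change was 0.26 and 0.39. The direction was uneven within the pathway: Tet1 stood at 28.3% of its control mean, Mbd4 at 63.2%, Dnmt1 at 72.0% and Tet3 at 77.6%, whereas Tdg stood at 137%.

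**Figure D1:**
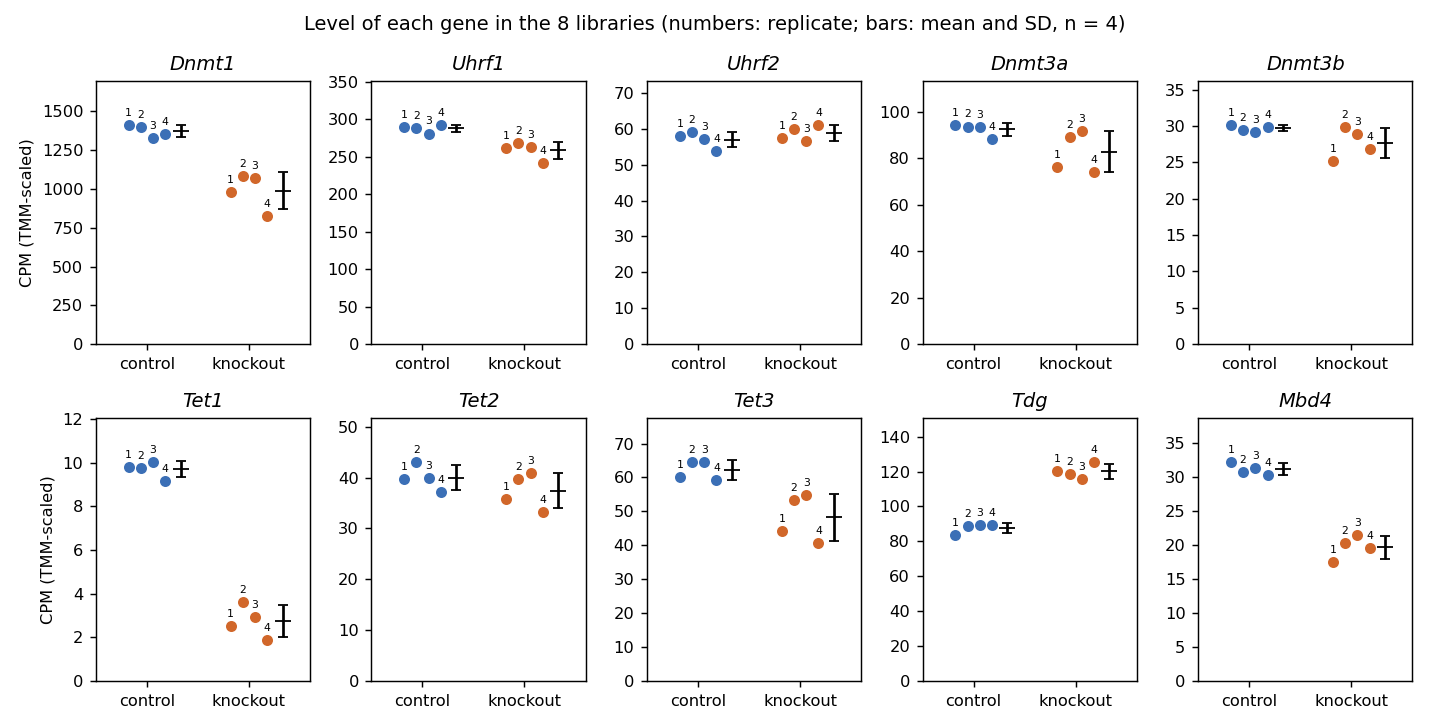
Level of each of the 10 genes in CPM (vertical axes from 0) in the 4 control (blue) and 4 knockout (orange) libraries, with replicate numbers at the points and the mean and SD (n = 4) as black bars. The groups stand apart in Dnmt1, Uhrf1, Tet1, Tet3, Tdg and Mbd4, and knockout replicates 1 and 4 lie below replicates 2 and 3 in 8 genes.

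The genes of the maintenance pair, Dnmt1 and Uhrf1, were lower, Dnmt1 more so than its guide. Dnmt1 (9:20907209-20959888, minus strand), the maintenance methyltransferase, stood at 1413, 1400.2, 1326 and 1357 CPM in control replicates 1 to 4 and at 978, 1086, 1070.1 and 825 CPM in knockout replicates 1 to 4. The lowest control lay above the highest knockout, and knockout replicate 4 was the lowest of all. Its level fell by 0.47 on the log2 scale (SE 0.068, 95% interval -0.62 to -0.33, edgeR quasi-likelihood, adjusted p = 6.5e-06), from 1374 ± 40.2 to 989.7 ± 119.9 CPM (SD, n = 4).
Uhrf1 (17:56303321-56323486, plus strand), the protein that recognises DNA methylated on a single strand and recruits DNMT1, stood at 289.8, 289.0, 281 and 293 CPM in controls. Knockouts gave 261, 268, 264 and 242 CPM. The groups did not overlap, though the gap between the lowest control and the highest knockout was small. Uhrf1 fell by 0.16 (SE 0.045, 95% interval -0.25 to -0.063, edgeR, adjusted p = 0.0041). Its relative Uhrf2 (19:30030513-30093722, plus strand), a related ubiquitin ligase that also reads modified cytosine, stood at 57.9, 58.9, 57.1 and 53.9 CPM in controls and 57.5, 60.0, 56.6 and 61.0 CPM in knockouts. These ranges overlapped, and the log2 fold change was 0.045 (95% interval -0.049 to 0.14, edgeR, adjusted p = 0.40).

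The genes of the de novo methyltransferases differed little. Dnmt3a (12:3806007-3914443, plus strand) stood at 94.3, 93.6, 93.6 and 88.1 CPM in controls and at 76.3, 89.3, 91.5 and 74.1 CPM in knockouts. Knockout replicates 2 and 3 lay within the control range, and replicates 1 and 4 lay below all controls. Its level fell by 0.16 (SE 0.059, 95% interval -0.28 to -0.034, edgeR, adjusted p = 0.025). Leaving out control replicate 1, control replicate 2 or knockout replicate 1 ended the Dnmt3a call (adjusted p = 0.060, 0.057 and 0.079), and without both knockout replicates 1 and 4 the log2 value was -0.038 (adjusted p = 0.48). It also ended when gene length was taken into account (-0.076, edgeR, adjusted p = 0.12).
Dnmt3b (2:153649450-153687730, plus strand) stood at 30.2, 29.5, 29.2 and 29.9 CPM in controls and 25.2, 29.8, 28.8 and 26.9 CPM in knockouts. The ranges overlapped, and the log2 fold change was -0.10 (SE 0.054, 95% interval -0.21 to 0.013, edgeR, adjusted p = 0.11). It passed the test with upper quartile scaling, without knockout replicate 2 and with length taken into account (adjusted p = 0.036, 0.037 and 0.032).

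Among the TET genes, whose products start the removal of the mark, Tet1 fell most. Tet1 (10:62804570-62899118, minus strand) stood at 9.81, 9.76, 10.04 and 9.17 CPM in controls and at 2.53, 3.62, 2.94 and 1.88 CPM in knockouts. Every knockout lay under the lowest control by a wide margin. These levels rest on 519 to 601 counts per control library and 95 to 169 per knockout library. Tet1 fell by 1.82 on the log2 scale (SE 0.13, 95% interval -2.09 to -1.56, edgeR, adjusted p = 1.4e-10), from 9.69 ± 0.37 to 2.74 ± 0.73 CPM (SD, n = 4).
Tet3 (6:83362373-83459084, minus strand) stood at 60.3, 64.7, 64.5 and 59.3 CPM in controls and at 44.3, 53.4, 54.8 and 40.6 CPM in knockouts. The groups did not overlap, and the knockouts fell into a lower pair (replicates 1 and 4) and a higher pair (replicates 2 and 3). Its level fell by 0.36 (SE 0.085, 95% interval -0.55 to -0.18, edgeR, adjusted p = 0.0023), and by 0.21 without knockout replicates 1 and 4 (adjusted p = 5.4e-04). Tet2 (3:133463679-133545139, minus strand), the member whose loss is best known from blood cancers, stood at 39.7, 43.1, 40.0 and 37.1 CPM in controls and 35.9, 39.7, 40.8 and 33.3 CPM in knockouts. Its ranges overlapped, with a log2 fold change of -0.095 (SE 0.061, 95% interval -0.22 to 0.031, edgeR, adjusted p = 0.18). Without knockout replicates 1 and 4 that value was 0.0034 (adjusted p = 0.96).

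The DNA glycosylase genes went in opposite directions. Tdg (10:82629828-82650799, plus strand), which acts downstream of the TET enzymes, stood at 83.5, 88.6, 89.6 and 89.6 CPM in controls and at 120.5, 118, 116 and 126 CPM in knockouts. All knockouts lay above all controls. Tdg rose by 0.45 on the log2 scale (SE 0.044, 95% interval 0.36 to 0.54, edgeR, adjusted p = 4.1e-09).
Mbd4 (6:115840697-115853371, minus strand), the glycosylase that repairs thymine opposite guanine at CpG sites, stood at 32.2, 30.7, 31.3 and 30.3 CPM in controls and at 17.5, 20.2, 21.5 and 19.5 CPM in knockouts. All knockouts lay below all controls. Mbd4 fell by 0.66 (SE 0.059, 95% interval -0.78 to -0.54, edgeR, adjusted p = 1.0e-09). Opposite-strand genes share 367 exonic bases with Tdg (Glt8d2) and 264 with Mbd4 (Gm44206), but those genes held only 157 and 201 counts over all libraries beside 44000 and 11123. The other shared stretches, 133 bases of Dnmt3a and 43 of Tet2, adjoin genes with 15 and 6 counts.

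**Figure D2:**
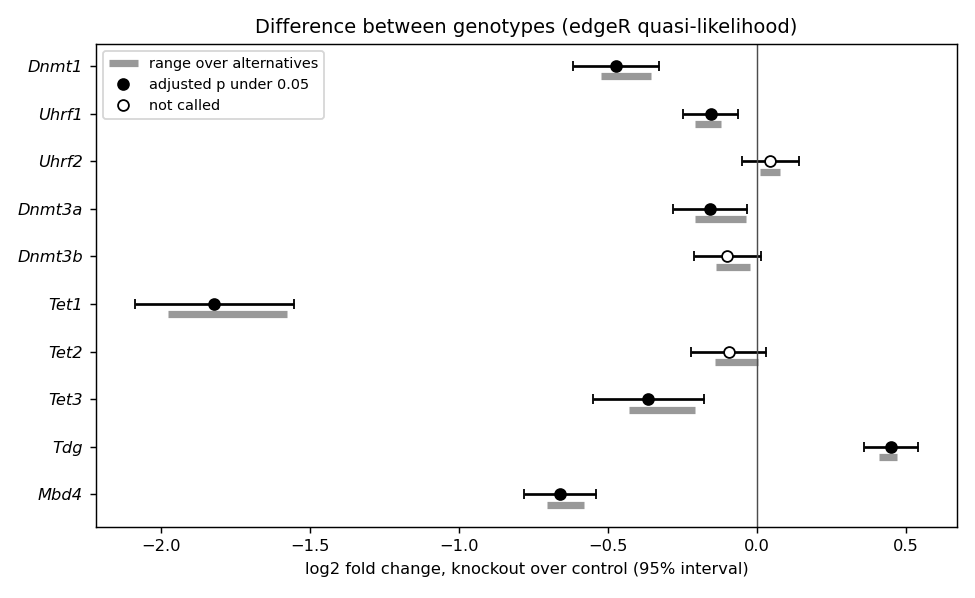
Log2 fold change of each gene, knockout over control (horizontal axis), with 95% intervals; filled points passed an adjusted p of 0.05 and grey bars give the range over 18 alternative settings. Tet1 at -1.82 lies farthest from 0, Tdg at 0.45 is the only called gene to the right of 0, and the bars of Tet2 reach from -0.14 to 0.0034.

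Per kilobase of exon, transcript levels ran from Dnmt1 down to Tet1 in both groups. Dnmt1 averaged 186 ± 5.4 CPM per kilobase in controls and 134 ± 16.2 in knockouts, and Uhrf1 followed at 67.7 ± 1.2 and 60.8 ± 2.7 (SD, n = 4). Tdg came next at 16.3 ± 0.54 and 22.3 ± 0.79 CPM per kilobase. Uhrf2, Mbd4, Dnmt3b and Dnmt3a lay close together in controls, at means of 6.63, 5.90, 5.81 and 5.55 CPM per kilobase, and the libraries of Mbd4 and Dnmt3b overlapped. In knockouts Mbd4, at 3.72 ± 0.32, moved from the fifth place in this order to the seventh, below Dnmt3b and Dnmt3a, whose libraries overlapped there. All other neighbours in the order were apart in every library of their group, Tet3 and Tet2 in knockouts by the least (lowest Tet3 2.43, highest Tet2 2.42). Tet1 was the lowest at 0.659 ± 0.025 and 0.187 ± 0.050 CPM per kilobase.
As a description of the balance within families, Tet1 made up 9.76% ± 0.30 of the summed length-adjusted TET level in controls and 3.48% ± 0.59 in knockouts (SD, n = 4). The share of Tet2 stood at 35.1% ± 0.84 and 42.0% ± 1.4, and that of Tet3 at 55.2% ± 0.74 and 54.5% ± 1.0. Dnmt1 made up 94.2% ± 0.12 and 92.8% ± 0.55 of the summed DNMT level. The ratio of Dnmt1 to Uhrf1, both per kilobase, was 2.75 ± 0.065 in controls and 2.20 ± 0.18 in knockouts, and that of Tdg to Mbd4 was 2.78 ± 0.16 and 6.04 ± 0.65 (SD, n = 4).

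**Figure D3:**
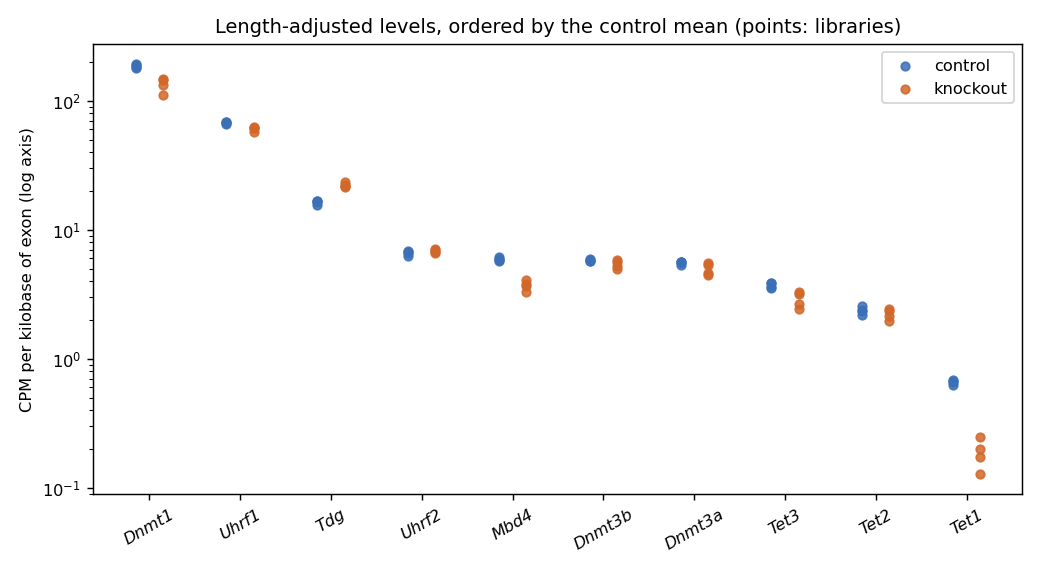
Length-adjusted level of each gene in CPM per kilobase of exon (log axis), ordered by the control mean, with control (blue) and knockout (orange) libraries as points. Levels reach from 186 CPM per kilobase for Dnmt1 to 0.659 for Tet1 in control means, and Mbd4 drops in the order in knockouts.

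Within the knockouts, libraries differed in a way that went with gene length across the table, which was seen after the values were known. Replicates 1 and 4 both lay below replicates 2 and 3 in 8 of the 10 genes, all but Uhrf2 and Tdg, beside 23.2% of all tested genes and 58.9% of the 1342 genes longer than 8000 exonic bases with a mean of at least 10 CPM. In the 154 genes longer than 16000 bases, the median deviation from the knockout mean (log2 CPM) was -0.18 in replicate 4 and -0.033 in replicate 1, and 0.13 and 0.091 in replicates 2 and 3. In control libraries the same medians ran from -0.043 to 0.038. Between genotypes, the median log2 fold change was -0.11 in genes under 1000 bases, 0.12 from 1000 to 2000, 0.14 from 2000 to 4000, 0.031 from 4000 to 8000, -0.042 from 8000 to 16000 and -0.19 above. Of the 8 enzyme genes with lower values in replicates 1 and 4, Tet2, Tet3 and Dnmt3a are longer than 16000 exonic bases and Tet1 has 14710, whereas Dnmt1, Mbd4, Dnmt3b and Uhrf1 have 7377, 5280, 5106 and 4259. Uhrf2, without that pattern, has 8590 and Tdg 5374. With length offsets per library the falls of Tet1, Tet3, Dnmt1, Uhrf1 and Mbd4 and the rise of Tdg passed the test.

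**Figure D4:**
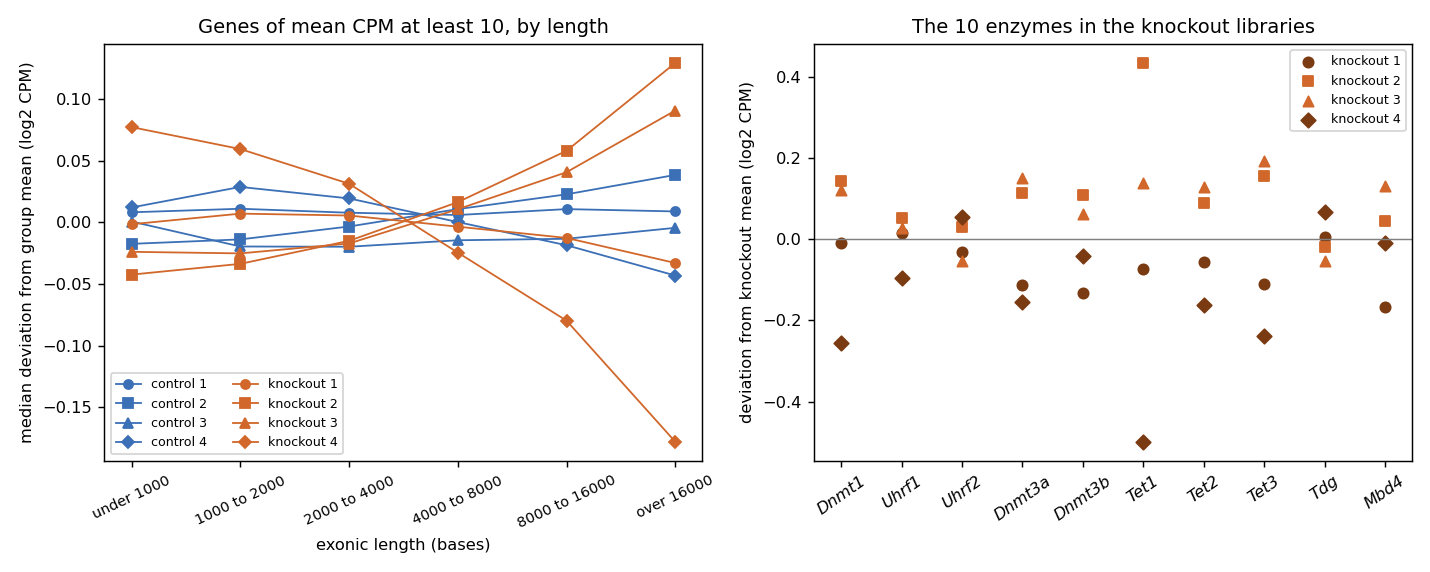
Left, median deviation of genes from their group mean (log2 CPM) by exonic length, a line per library; right, deviation of each of the 10 genes from its knockout mean in the 4 knockout libraries. In genes longer than 16000 bases the knockout libraries spread from -0.18 to 0.13, and the control libraries from -0.043 to 0.038.

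Of 14 listed genes that feed or assist the methyltransferases 11 were tested, 6 rose, 2 fell and 3 did not pass, with a median log2 fold change of 0.13, beside rises in 32.8% and falls in 31.6% of all tested genes. Ahcy, which clears the S-adenosylhomocysteine left by methyl transfer, rose from 99.0 ± 3.9 to 155 ± 13.2 CPM (log2 0.65, edgeR, adjusted p = 3.2e-10). Mat2a, the catalytic subunit that makes the methyl donor S-adenosylmethionine, rose from 57.4 ± 1.1 to 84.7 ± 3.7 CPM (log2 0.56, adjusted p = 1.2e-10), while its regulatory subunit Mat2b fell from 43.0 ± 1.3 to 36.3 ± 2.5 CPM. The corepressor gene Trim28 rose by 0.37 and Zbtb24 fell by 0.30. The remaining rises were those of the maintenance partners Hells, Usp7 and Cdca7, at 0.20, 0.14 and 0.12. Those 3 genes were named after their values were seen. Dnmt3l, Zfp57 and Dppa3 were too low to be tested.

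Of 9 genes for readers of methylated DNA and their relatives, 7 fell and 1 rose, with a median log2 fold change of -0.26. Among all tested genes 31.6% fell and 32.8% rose. Zbtb4, a zinc finger protein that binds methylated CpG, fell from 14.6 ± 0.87 to 7.17 ± 0.69 CPM (log2 -1.03, SE 0.077, edgeR, adjusted p = 5.2e-11). Mbd6, a relative of the methyl-CpG binding proteins, fell by 0.62. Mbd3, a subunit of the NuRD complex that does not itself prefer methylated DNA in mammals, rose from 172 ± 15.6 to 234 ± 6.1 CPM (log2 0.44, adjusted p = 2.0e-07).

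Of 11 base excision repair genes, which complete the work of TDG and MBD4, 4 rose and 4 fell, with a median of -0.063; these shares are close to the 32.8% and 31.6% of all tested genes. Among the genes that rose like Tdg were 3 for later steps of repair. Apex1, the endonuclease that cuts at the abasic site, rose from 86.1 ± 3.6 to 132 ± 4.6 CPM (log2 0.61, edgeR, adjusted p = 2.9e-11), the ligase gene Lig3 by 0.52 and the polymerase gene Polb by 0.45. The glycosylase genes Neil3, Neil1 and Smug1 fell like Mbd4, whereas the uracil glycosylase gene Ung, named after its value was seen, rose by 0.19 with overlapping groups (adjusted p = 0.021). Neil3 went from 120.0 ± 5.7 to 37.1 ± 5.1 CPM (log2 -1.69, SE 0.081, adjusted p = 5.3e-10), Neil1 fell by 0.46 and Smug1, whose groups overlapped, by 0.40.

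TET partners and cofactor genes gave 5 rises and 4 falls among 11 tested of 12 listed, beside the same 32.8% and 31.6%, with a median of -0.025. Gadd45g and Gadd45b, stress-induced proteins linked to demethylation, rose from 11.9 ± 1.4 to 47.2 ± 2.8 CPM and from 5.03 ± 0.75 to 15.9 ± 0.95 CPM (log2 1.99 and 1.66, edgeR, adjusted p = 2.0e-16 and 1.2e-13). Their relative Gadd45a did not pass the test (log2 -0.22, edgeR, adjusted p = 0.22). Idh3a, a subunit of the mitochondrial enzyme that makes the TET cofactor 2-oxoglutarate, rose by 0.78. Of the other listed Idh genes, Idh1 fell by 0.17 with overlapping groups (edgeR, adjusted p = 0.033) and Idh2 did not pass the test. Ogt, the O-GlcNAc transferase that binds TET proteins, fell from 125 ± 4.2 to 68.7 ± 3.6 CPM (log2 -0.86, adjusted p = 1.2e-13); it lies on chromosome X, as Xist does. Cxxc5, a CpG-binding protein, fell from 4.93 ± 0.64 to 1.33 ± 0.31 CPM (log2 -1.88, adjusted p = 1.0e-10), and D2hgdh, which clears the TET inhibitor 2-hydroxyglutarate, fell by 0.31.

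**Figure D5:**
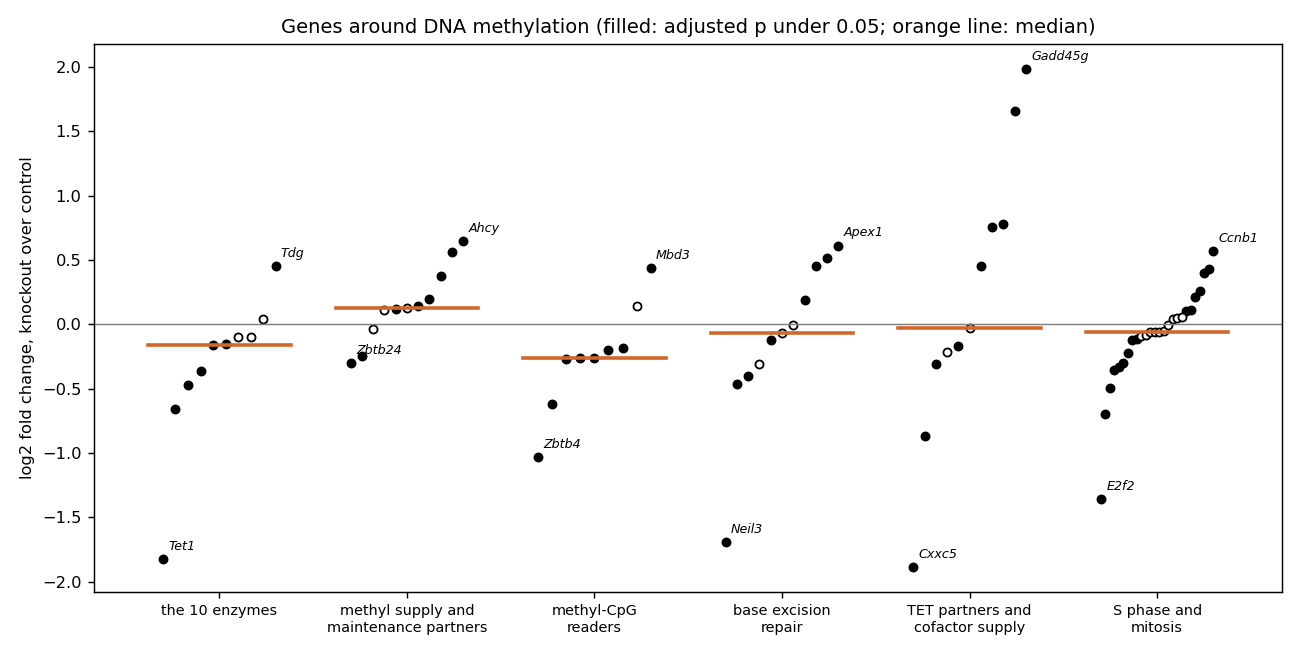
Log2 fold change, knockout over control (vertical axis), of the 10 enzymes and of 5 lists around them; filled points passed an adjusted p of 0.05, open points did not, and orange lines are medians. Genes of readers and their relatives lie mostly below 0 with a median of -0.26, and the S phase list is centred at -0.057.

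Dnmt1 and Uhrf1 are expressed with DNA replication, so the S phase and mitosis list is given beside them. Of its 26 genes 7 rose, 9 fell and 10 did not pass, beside 32.8% higher and 31.6% lower of all tested genes, with a median of -0.057. Mki67, the proliferation antigen, fell from 3480.2 ± 145.7 to 2147 ± 283 CPM (log2 -0.70, SE 0.076, edgeR, adjusted p = 6.8e-07) and Top2a, a topoisomerase of dividing cells, by 0.49. E2f2, a transcription factor of the E2F family, fell from 112 ± 2.3 to 43.8 ± 1.2 CPM (log2 -1.36, edgeR, adjusted p = 8.9e-18). Of the other listed E2F genes, E2f8 fell by 0.33 (edgeR, adjusted p = 7.4e-07). E2f1 did not pass the test (log2 -0.090, edgeR, adjusted p = 0.15). The cyclin genes Ccnb1, Ccne1 and Ccne2 rose by 0.57, 0.43 and 0.40. Of the other listed cyclin genes, Ccna2 rose by 0.11 and Ccnb2 fell by 0.36. The part of proliferation in the Dnmt1 and Uhrf1 falls was not tested.

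Of 15 germline genes known to be silenced by DNA methylation in somatic tissues, 4 had 0 counts in all libraries and 13 stayed under 1 CPM in every library. Of the 4 tested, Piwil2 rose from 0.717 ± 0.098 to 1.34 ± 0.11 CPM (edgeR, adjusted p = 2.4e-04), and Brdt fell from 7.70 ± 0.25 to 3.70 ± 0.76 CPM (adjusted p = 1.9e-08). Tex11, at 0.262 ± 0.070 and 0.102 ± 0.099 CPM with overlapping groups, also fell (adjusted p = 0.039).

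Markers of the labelled cell type were present throughout, with the 9 CD8 T cell genes summing to 2116 to 2175 CPM in controls and 1624 to 1787 in knockouts. Of these 9 genes 8 fell and 1 rose, beside falls in 31.6% and rises in 32.8% of all tested genes. Cd2, the most abundant over both groups, rose by 0.37. In controls Cd3g, Cd8b1, Cd8a and Lck were higher, at 361, 338, 331 and 317 CPM beside 316 for Cd2. Macrophage markers summed to 6.56 to 7.02 CPM in controls and 5.33 to 6.04 in knockouts (Cd68 the most abundant, 6 of 10 under 1 CPM everywhere). Of the 4 tested macrophage genes 1 rose, 1 fell and 2 did not pass, beside the same 32.8% and 31.6%. Csf1r rose from 1.28 to 2.00 CPM and Itgam fell from 2.26 to 0.557 CPM (edgeR, adjusted p = 0.0017 and 1.0e-08). B cell markers summed to 4.92 to 6.44 CPM in controls and 3.12 to 3.93 in knockouts (Cd79b). Dendritic markers summed to 1.40 to 1.74 and 3.25 to 3.79, with Xcr1 the highest in controls and Zbtb46 in knockouts, and neutrophil markers to 0.164 to 0.310 and 0.174 to 0.435 (Mpo). Melanoma markers went from 17.9 to 19.4 CPM in controls to 5.30 to 6.56 in knockouts, with 3 of 7 at 0 counts everywhere. Pmel averaged 16.9 and 4.32 CPM, and Mitf, the other marker above 1 CPM, stood at 1.72 CPM in controls with a log2 fold change of -0.10 that did not pass the test. Natural killer and gamma-delta markers summed to 37.1 to 41.1 and 52.7 to 57.5 CPM (Eomes), a list holding genes that activated CD8 T cells express as well. Of these 6 genes 4 rose, 1 fell and 1 did not pass, beside 32.8% higher and 31.6% lower of all tested genes. The gene that fell was Gzma, from 11.1 to 4.38 CPM. CD4 and regulatory markers, also shared in part with activated CD8 T cells, summed to 738 to 759 and 1524 to 1575 CPM. In this list Il2ra rose from 233 to 1015 CPM and Cd4 fell from 2.32 to 1.52 CPM (edgeR, adjusted p = 4.7e-04), whereas Ctla4 (477 and 502 CPM), Foxp3 and Zbtb7b did not pass the test. Fibroblast and endothelial markers went from 99.9 to 112 CPM to 25.3 to 30.6, nearly all of it Pecam1, which T cells express too. The part of other cells in the enzyme differences was not tested.

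The genes most like Tet1 across the 8 libraries, among 7492 genes with a mean of at least 10 CPM once the enzymes themselves and, by symbol, predicted genes and pseudogenes were left out, were Utrn, Baz2b and Sptbn1, with Pearson r of log2 CPM of 0.998 each. Those most like Tdg were Uba2, Dctd and Tigit, with r of 0.998, 0.997 and 0.997. The libraries form separate groups by genotype, so such values mostly restate that difference: 1031 and 1614 genes had r above 0.95. For deviations from the group means, r with Tet1 was 0.969 for Utrn, 0.977 for Baz2b and 0.970 for Sptbn1. With Tdg it was 0.960 for Uba2, 0.912 for Dctd and 0.910 for Tigit. These genes were picked by their r over the same 8 libraries, so the deviations are no separate evidence of likeness. These r values are descriptions and carry no test.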

How the data were processed

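The members and gene lists were chosen with earlier results of these data known. TRIzol-extracted RNA became stranded polyA libraries, per the labels' protocols. Tools named in the submitters' processing notes are Trimmomatic 0.36 and featureCounts (Subread 1.5.1), with build GRCm38. No source used here names the aligner, annotation release, strand setting or any use of molecular tags. The authors deposited raw counts per gene with exon coordinates and lengths. In genes with 1 to 10 counts, 87.0% to 88.7% of counts were even, as when both reads of a fragment are counted; halving them is among the alternatives.

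Counts were tested in edgeR 4.0.16 (R 4.3.3, limma 3.58.1): filterByExpr kept 17940 genes, TMM scaled the libraries, and the robust quasi-likelihood F test (two-sided) set 4 knockout against 4 control libraries. Benjamini-Hochberg adjustment ran over the whole table of tested genes, and calls needed an adjusted p under 0.05. SE is the absolute log2 fold change over the square root of F. CPM per kilobase uses the exonic length of the table. With counts halved, so that a fragment counts once, libraries of a genotype differed by 1.69 to 4.47 times sampling noise (12 pairs, median chi-square over its expected value), so none was merged. Alternatives covered scaling, filtering, DESeq2 1.42.0, halved counts, a replicate block and omitted libraries; length and GC offsets (GENCODE M21 transcripts) and omission of knockout replicates 1 and 4 were chosen after seeing the data. Named genes were all members and, of each pathway list, the 3 called genes with the smallest adjusted p in each direction. The most abundant gene of each marker list and the 3 genes most like the leading called member in each direction were also named. Not all of these are reported here. Some Y-linked members, Plpp1 and further genes of the lists were added.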

Additional observations from a re-analysis of the deposited data

Results flagged for a closer look

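A library stood far from the other 3 of its group in 8 of the 110 gene and group combinations examined, where chance flags about 1 in 20. Among the 10 enzymes, Dnmt3a in control replicate 4 stood at 88.12 CPM, below 93.6 to 94.3 in the other controls, and Tdg in control replicate 1 at 83.52 CPM, below 88.6 to 89.6. In the lists around them, Mat2b in control replicate 3 stood at 45.06 CPM (others 42.3 to 42.5), D2hgdh in control replicate 1 at 6.679 CPM (others 7.35 to 7.46) and Top2a in knockout replicate 4 at 1175 CPM (others 1282 to 1299). Zbtb46 in control replicate 1 stood at 0.3765 CPM (others 0.682 to 0.716). Tigit stood at 23.00 CPM in control replicate 1 (others 24.5 to 24.6) and at 33.51 CPM in knockout replicate 4 (others at most 32.1).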

How the results depend on the processing

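Over 18 alternatives, Dnmt1, Uhrf1, Tet1, Tet3, Tdg and Mbd4 kept direction and call, with log2 ranges of -0.52 to -0.36, -0.21 to -0.12, -1.98 to -1.58, -0.43 to -0.21, 0.41 to 0.47 and -0.71 to -0.58. Uhrf2 stayed uncalled. The Dnmt3a call ended under 6 alternatives: without control replicate 1 or 2 or knockout replicate 1 (-0.15, -0.16 and -0.13), without both knockout replicates 1 and 4 (-0.038), with length offsets (-0.076) and with length and GC offsets (-0.068). Dnmt3b passed under 3. Tet2 turned to 0.0034 (adjusted p = 0.96) without both knockout replicates 1 and 4. The cause was not tested. Counts of called enzymes stayed at 1 higher and 5 to 7 lower. Over all tested genes, deviations of same-numbered libraries had r from 0.0049 to 0.057. In genes longer than 16000 bases, replicate 2 had the highest median deviation in both groups (0.038 in controls, 0.13 in knockouts). Replicate 4 had the lowest (-0.043 and -0.18), while replicates 1 and 3 differed in sign between groups. These values do not settle whether the numbers pair the libraries. With the replicate block 1 enzyme was higher and 6 lower, and Dnmt1 stood at -0.48. The SE of Tet3 went from 0.085 to 0.052 (edgeR, adjusted p = 3.9e-06), whereas that of Mbd4 stayed at 0.059. The 95 to 169 Tet1 counts per knockout library limit the precision of its level.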
